A study of Mus musculus with 12 samples.

Results

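The genes described here encode the collagens, the laminins, fibronectin and the numbered integrin subunits, which together form the matrix around embryonic cells and the receptors that hold it. Members were taken by name from the array's probe annotation, by a rule that uses no measured values but was chosen with earlier results of these data known. The annotation held 75 such genes, which were 44 collagen chains, 10 laminin chains, fibronectin (Fn1), 12 integrin alpha subunits and 8 integrin beta subunits. A gene was kept when at least 3 of the 12 arrays gave a probe of it a detection p-value below 0.05, and its brightest such probe stood for it. This left 39 members among the 11124 named genes detected, made up of 21 collagens, 7 laminins, fibronectin, 7 integrin alpha and 3 integrin beta subunits. Itgb3 was not analysed here.

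RNA had been taken from epiblast of mouse embryos at E7.75, cut along the anterior to posterior axis, and hybridised to Illumina bead arrays. There were 4 groups of 3 arrays each, namely Dkk-/- posterior, Dkk-/- anterior, Dkk+/+ posterior and Dkk+/+ anterior epiblast, and Dkk-/- arrays are called knockout and Dkk+/+ arrays control. The array codes name Dkk1, the gene of a secreted Wnt antagonist. The labels do not give the strain, the deleted part of the gene, or how many embryos went into an array. Their protocol speaks of more genotypes than the pair it names. Nothing in the labels says that arrays of a group came from separate litters, so p-values measure the spread between these arrays, which may be technical in part.

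Collagens of the fibrillar class (Col1a1, Col1a2, Col2a1, Col5a1) assemble into fibres, whereas type IV collagens form the sheet-like network of basement membranes. Laminins are trimers of an alpha, a beta and a gamma chain, and they build the basement membrane on which the epiblast rests and which cells leave as they pass through the primitive streak. Integrins are alpha and beta pairs that span the cell membrane and bind these proteins, with Itga6 known as a laminin receptor subunit, Itga5 as the fibronectin receptor subunit and Itgb1 as their common partner. Fibronectin is known to be needed for mesoderm migration and heart formation in the mouse. The visceral endoderm, which covers the epiblast at this stage, is itself known to make type IV collagen and laminin.

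Promoter windows from RefSeq (GRCm38.p6, 250 bases before to 50 after the annotated start) were available for 29 of the 39 detected members. The windows shown first belong to Lama2 and Col24a1, which passed the test between regions. Capitals mark matches to the TATA box core (letters TATAAA), the CCAAT box, the GC box (letters GGGCGG) or the TCF/LEF core (letters CTTTGA) on either strand. The Lama2 window is chr10:27616893-27617192 on the minus strand and the Col24a1 window is chr3:145292222-145292521 on the plus strand.
Lama2: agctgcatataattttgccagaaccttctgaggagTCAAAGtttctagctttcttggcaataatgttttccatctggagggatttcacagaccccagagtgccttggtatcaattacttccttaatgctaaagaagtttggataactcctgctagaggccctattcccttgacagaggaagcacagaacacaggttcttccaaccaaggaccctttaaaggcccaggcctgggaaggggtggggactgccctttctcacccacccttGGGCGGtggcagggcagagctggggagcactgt
Col24a1: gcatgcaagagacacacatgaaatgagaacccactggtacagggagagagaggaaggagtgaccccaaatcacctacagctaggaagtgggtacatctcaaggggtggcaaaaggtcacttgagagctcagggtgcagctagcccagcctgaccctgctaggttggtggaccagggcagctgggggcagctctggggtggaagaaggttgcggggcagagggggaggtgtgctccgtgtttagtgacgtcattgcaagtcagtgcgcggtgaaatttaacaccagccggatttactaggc
The Lama2 window held the TCF/LEF core, letters bound by the nuclear factors of Wnt signalling, on the opposite strand at -215 to -210 from the start, and the GC box at 18 to 23. The TCF/LEF core occurred in 24.2% of the 33 windows of these 29 members and in 16% of all 32851 windows in the table, and the GC box in 60.6% and 35.7% of them. The CCAAT box occurred in 30.3% of the members' windows and 37.4% of all windows, and the TATA box core in 3.03% and 13.6%. The windows were searched for these letters and not tested for binding, and the Col24a1 window held none of them.

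Col4a1 and Col4a2, which encode the chains of the main type IV collagen trimer, start head to head, and their windows are shown because they overlap. They lie at chr8:11312777-11313076 on the minus strand and chr8:11312555-11312854 on the plus strand, with annotated starts 21 bases apart, and capitals here mark the 78 bases that both windows hold.
Col4a1: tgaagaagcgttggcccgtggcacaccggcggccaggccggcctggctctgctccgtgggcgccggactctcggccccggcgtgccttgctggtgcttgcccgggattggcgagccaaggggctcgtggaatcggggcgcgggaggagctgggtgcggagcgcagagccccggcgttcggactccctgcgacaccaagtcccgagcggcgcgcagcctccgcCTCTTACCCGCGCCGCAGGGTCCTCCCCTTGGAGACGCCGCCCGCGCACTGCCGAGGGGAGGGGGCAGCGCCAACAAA
Col4a2: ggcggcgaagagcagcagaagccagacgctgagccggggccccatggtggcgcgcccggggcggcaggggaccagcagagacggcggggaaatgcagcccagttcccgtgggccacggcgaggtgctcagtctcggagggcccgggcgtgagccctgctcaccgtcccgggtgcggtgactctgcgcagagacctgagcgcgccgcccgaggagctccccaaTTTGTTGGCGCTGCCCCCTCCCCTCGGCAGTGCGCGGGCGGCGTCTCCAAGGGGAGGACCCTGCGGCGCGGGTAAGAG
The Col4a1 window held 1 CCAAT box and 1 GC box, and the Col4a2 window held 1 CCAAT box and 3 GC boxes, on either strand.

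The level of Dkk1 could not be used to check the genotype labels. In posterior epiblast it stood at 4.74, 4.31 and 4.46 in knockout arrays, none of them detected, and at 5.05, 5.12 and 4.64 in control arrays, of which 2 were detected (log2 normalised intensity, the scale of all levels below). In anterior epiblast it stood at 6.0, 6.27 and 6.17 in knockout arrays and at 6.10, 5.78 and 6.06 in control arrays, where the groups overlapped (difference 0.17, SE 0.17, limma adjusted p = 0.83). Whether the probe lies inside the deleted part was not known, so every genotype statement below refers to arrays labelled knockout. The region labels did match the marker lists. Posterior streak markers (7 detected of 8, with T not in the annotation) summed to 15300 to 16400 in knockout posterior arrays against 1790 to 2400 in knockout anterior arrays, and to 14500 to 15300 in control posterior against 1200 to 1250 in control anterior arrays. Anterior neural markers (5 detected of 8, with Six3, Sox1 and Rax not detected) summed to 206 to 404 and 1710 to 2010 in knockout posterior and anterior arrays, and to 645 to 801 and 3490 to 4260 in the control ones. All 8 visceral endoderm markers, Ttr and Apoa1 among them, were detected on every array, with sums of 41000 to 42700, 44700 to 49500, 43200 to 45400 and 44500 to 49300 in knockout posterior, knockout anterior, control posterior and control anterior arrays, so RNA of these genes was present in all the tissue labelled epiblast. Array brightness ranged between a mean signal of 189 for knockout posterior replicate 2 and 693 for control anterior replicate 2, and these arrays detected 22 and 31 members.

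Of the 39 members, 18 were detected on all 12 arrays, 9 on 6 to 11 and 12 on 3 to 5. Those on every array were Fn1, the collagens Col4a1, Col4a2, Col5a1, Col7a1, Col9a3, Col16a1, Col18a1, Col23a1 and Col26a1, the laminin chains Lama1, Lama5, Lamb2 and Lamc1, and the integrin subunits Itga3, Itga5, Itgb1 and Itgb5. The 36 members with no probe past the filter included Col3a1, Col5a2, Col6a2, Col6a3, Itga2, Itga4, Itgb6, Itgb8, Lama3, Lama4 and Lamc3, and 23 of the 36 were detected on no array. Of the fibrillar chains, Col1a1 was detected on 7 arrays and Col1a2 on 4, with values between 4.33 and 5.87. The dimmest signal that an array could detect was 4.81 to 5.13. The 5.87 was Col1a2 in knockout posterior replicate 2, and Col1a2 stood at 4.44 to 4.97 in the other arrays.

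Between regions, 3 members passed the test in knockout embryos and 3 in control embryos, with Col2a1 in both sets. In knockout arrays Col2a1, Itga6 and Lama2 were lower in posterior than anterior epiblast. In control arrays Col2a1 was lower, and Col26a1 and Col24a1 were higher, in posterior epiblast. That is 7.69% of the members in either genotype, beside 7.87% of all genes in knockout arrays (3.56% higher and 4.31% lower) and 4.98% in control arrays (2.69% higher and 2.29% lower), by limma with a Benjamini-Hochberg adjusted p under 0.05 over all 11124 genes. Without knockout posterior replicate 2 or knockout anterior replicate 2, which share the estimate of spread, 5 members passed between control regions. The share of all genes in these fits is not given here. With arrays scaled to a common median in place of quantile normalisation, none of the 3 knockout members passed, while Itga10, a collagen receptor subunit, passed as higher in posterior epiblast (0.73, adjusted p = 0.035). The median regional difference of the members was -0.15 in knockout arrays, against -0.01 over all genes, and -0.02 in control arrays, against 0.01 over all genes. RNA of whole tissue pieces was measured, so fewer cells of a type and less RNA per cell cannot be told apart.

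**Figure D1:**
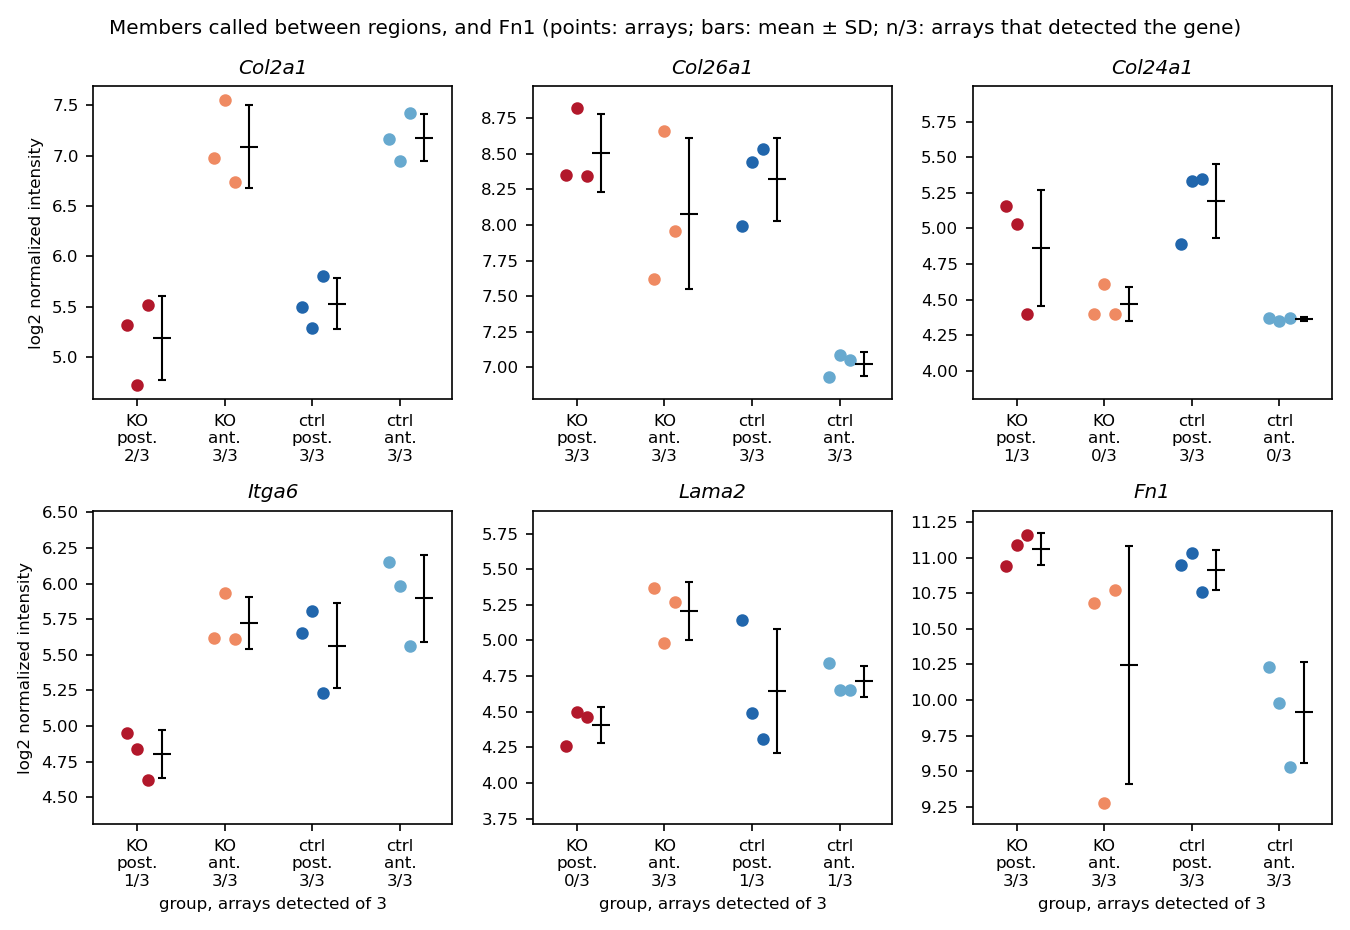
Log2 normalised intensity of the 5 members that passed the test between regions, and of Fn1, in each array of the 4 groups (KO, knockout; ctrl, control; post., posterior; ant., anterior), with bars for the mean ± SD and the number of arrays that detected the gene under each group. Col2a1 is lower in all posterior arrays than in all anterior arrays, and Fn1 is higher in all posterior arrays than in the anterior arrays of its genotype.

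Col2a1 encodes the fibrillar collagen of cartilage and notochord, which is also known in the early neural tube. It stood at 5.32, 4.72 and 5.52 in knockout posterior arrays against 6.98, 7.55 and 6.74 in knockout anterior arrays. In control embryos it stood at 5.50, 5.29 and 5.80 in posterior arrays against 7.17, 6.95 and 7.42 in anterior arrays. Every posterior array lay below every anterior array, in both genotypes. The posterior level was 3.74-fold lower in knockout arrays (log2 difference -1.90, SE 0.24, limma adjusted p = 0.00033) and 3.14-fold lower in control arrays (-1.65, SE 0.24, adjusted p = 0.0011). Without knockout posterior replicate 2, the array with the lowest Col2a1 value, the knockout difference was -1.70 (adjusted p = 0.0011). Median scaling ended the knockout call (-1.27, adjusted p = 0.052), and with no background correction the knockout difference was -0.79 (adjusted p = 0.00047) and the control one -0.74 (adjusted p = 0.00091). The genotype difference of this regional step was -0.25 (SE 0.34, adjusted p = 0.95). Node and notochord markers, all 6 detected, summed to 973 to 1030 in knockout posterior, 733 to 864 in knockout anterior, 779 to 1090 in control posterior and 845 to 1120 in control anterior arrays, but the members of the list went in opposite directions. Shh, a notochord and node signal, was lower in posterior epiblast, as Col2a1 was, by -1.03 in knockout arrays (SE 0.25, limma adjusted p = 0.024) and -1.64 in control arrays (SE 0.25, adjusted p = 0.0013), whereas Dynlrb2, a dynein light chain, was higher in knockout posterior epiblast by 2.65 (SE 0.37, adjusted p = 0.00068). In all, 2 of the 6 rose and 1 fell between knockout regions, and 1 fell between control regions. Their part in the Col2a1 difference was not tested.

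Col26a1 encodes a short secreted collagen with few collagen repeats. It stood at 7.99, 8.44 and 8.53 in control posterior arrays against 6.93, 7.09 and 7.05 in control anterior arrays, which did not overlap. The posterior level was 2.46-fold higher in control embryos (log2 difference 1.30, SE 0.24, limma adjusted p = 0.0058). In knockout embryos it stood at 8.35, 8.82 and 8.34 in posterior arrays against 7.62, 8.66 and 7.96 in anterior arrays, with knockout anterior replicate 2 among the posterior values (0.43, SE 0.24, adjusted p = 0.31). The difference between these regional steps was -0.87 (SE 0.34, adjusted p = 0.74), so the steps were not shown to differ. Mesoderm markers (7 detected of 8, with Msgn1 not in the annotation) had sums of 4470 to 5880 in knockout posterior, 2760 to 2920 in knockout anterior, 4890 to 5260 in control posterior and 1240 to 1300 in control anterior arrays. Between control regions 4 of the 7 rose and none fell, while between knockout regions 4 rose and 2 fell, namely Tcf15 (-2.04, SE 0.33, limma adjusted p = 0.0023) and Foxc2 (-1.70, SE 0.23, adjusted p = 0.00061), transcription factors of the somites. Their part in the Col26a1 values was not tested.

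Col24a1 encodes a minor fibrillar collagen. It met the detection filter of 3 arrays only through the control posterior group, where it was highest, so the filter and the test drew on the same values. With no detection filter its control difference was 0.83 (limma adjusted p = 0.037). It stood at 4.89, 5.33 and 5.35 in control posterior arrays, all detected, against 4.37, 4.35 and 4.37 in control anterior arrays, none detected, so it was at least 1.26-fold higher in control posterior epiblast (fitted log2 difference 0.83, SE 0.19, limma adjusted p = 0.022). In knockout embryos it stood at 5.16, 5.03 and 4.40 in posterior arrays, 1 of them detected, against 4.40, 4.61 and 4.40 in anterior arrays, none detected, and the groups touched at their lowest values (0.39, SE 0.19, adjusted p = 0.24). Where a lower bound is given, 1 group lay below detection on all its arrays, and the bound was taken against the dimmest signal those arrays could detect. For other comparisons with such a group only the fitted difference is given. The other 2 Col24a1 probes were detected on 2 arrays and on none. The probe detected on 2 arrays differed by 0.63 between knockout regions and by 0.20 between control regions, so the probes did not give the same steps. Median scaling ended the control call (1.07, adjusted p = 0.17), as did an offset of 50 (0.38, adjusted p = 0.063) and no background correction (0.28, adjusted p = 0.056). So did leaving out control posterior replicate 2 or 3, or any control anterior replicate, with fitted differences of 0.73 to 0.85 and adjusted p-values of 0.068 to 0.10.

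Itga6, the alpha subunit that pairs with Itgb1 or Itgb4 to bind laminin, stood at 4.95, 4.84 and 4.62 in knockout posterior arrays, 1 of them detected, against 5.62, 5.93 and 5.61 in knockout anterior arrays, all detected. The groups did not overlap, and the posterior level was 1.88-fold lower (log2 difference -0.91, SE 0.19, limma adjusted p = 0.011). In control embryos it stood at 5.65, 5.81 and 5.23 in posterior arrays against 6.15, 5.98 and 5.56 in anterior arrays, which overlapped (-0.33, SE 0.19, adjusted p = 0.41). The knockout posterior values were the lowest of the 12, below all control posterior values (-0.76, SE 0.19, adjusted p = 0.27). A second Itga6 probe, detected on 6 arrays, differed by -0.95 between regions in knockout arrays and by -0.80 in control arrays, so the probes did not give the same control step. Median scaling ended the knockout call (-0.18, adjusted p = 0.76), and so did using no background correction (-0.27, adjusted p = 0.056).

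Lama2, the alpha chain of the laminin of muscle basement membrane, stood at 4.26, 4.50 and 4.46 in knockout posterior arrays, none detected, against 5.37, 4.98 and 5.27 in knockout anterior arrays, all detected. It was at least 1.18-fold lower in knockout posterior epiblast (fitted log2 difference -0.80, SE 0.19, limma adjusted p = 0.025). In control embryos it stood at 5.14, 4.49 and 4.31 in posterior arrays against 4.84, 4.65 and 4.65 in anterior arrays, 1 detected in each group, and the groups overlapped (-0.06, SE 0.19, adjusted p = 0.92). Lama2 met the detection filter of 3 arrays only through the knockout anterior group, where it was highest, so the filter and the test drew on the same values. With no detection filter its knockout difference was -0.80 (adjusted p = 0.041). The Lama2 call was also ended by median scaling (-0.02, adjusted p = 0.98), and by leaving out replicate 1 or 3 of either knockout group (-0.85 to -0.72, adjusted p = 0.054 to 0.077). It was ended as well by an offset of 50 (-0.36, adjusted p = 0.056), by no background correction (-0.27, adjusted p = 0.068) and in the authors' processed values (-0.31, adjusted p = 0.058). Median scaling moved the median of all genes between knockout regions to 0.16. The knockout posterior arrays included the dimmest of the 12, and all 3 Lama2 values there lay below the detection limit.

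Fn1, fibronectin, did not pass the test between regions, although each posterior array lay above each anterior array of its genotype. It stood at 10.94, 11.09 and 11.16 in knockout posterior arrays against 10.68, 9.28 and 10.77 in knockout anterior arrays (log2 difference 0.82, SE 0.32, limma adjusted p = 0.13). In control embryos it stood at 10.95, 11.03 and 10.76 in posterior arrays against 10.23, 9.98 and 9.53 in anterior arrays (1.00, SE 0.32, adjusted p = 0.099). Fn1 was the only member whose posterior arrays all lay above the anterior arrays in both genotypes, and Col2a1 and Col9a3 were the only ones whose posterior arrays all lay below. That is 2.56% of the members above, beside 5.15% of all genes, and 5.13% below, beside 5.75% of all genes. The spread was widest in knockout anterior epiblast, where replicate 2 lay below all other arrays. Without that array the control difference stayed at 1.00 and passed the test (adjusted p = 0.0038), while the knockout difference was 0.34 (adjusted p = 0.36). The control difference also passed with an offset of 50 (adjusted p = 0.049), in the authors' processed values (adjusted p = 0.042), with array weights (adjusted p = 0.0039) and with only the groups compared (adjusted p = 0.0066). The other 3 Fn1 probes differed in the same direction, by 0.83, 0.73 and 0.15 in knockout arrays and by 0.56, 0.70 and 0.34 in control arrays.

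Several further members lay near the threshold between regions. In knockout arrays Col13a1, a transmembrane collagen, stood at 4.67, 4.66 and 4.52 in posterior arrays, none detected, against 5.25, 5.51 and 5.41 in anterior arrays, and it was at least 1.34-fold lower (fitted -0.78, SE 0.22, limma adjusted p = 0.051). After median scaling the Col13a1 difference was -0.01 (adjusted p = 0.99). Col9a3 and Col9a1, chains of the type IX collagen that coats cartilage fibrils, differed by -0.62 (SE 0.18, adjusted p = 0.053) and -0.44 (SE 0.13, adjusted p = 0.054), and the Col9a1 difference was 0.30 after median scaling. Col9a1 was detected on no knockout posterior array. In control arrays Itga1, a collagen receptor subunit, stood at 5.41, 5.52 and 5.15 in posterior arrays against 4.50, 4.49 and 4.75 in anterior arrays, where it was not detected, and was at least 1.41-fold higher (fitted 0.78, SE 0.22, adjusted p = 0.061). Col22a1, a collagen of tissue junctions, differed by 0.61 in control arrays (SE 0.17, adjusted p = 0.065). Each except Col9a1 passed the test when certain arrays were left out. This held for Col13a1 without control posterior replicate 1 or 3 (adjusted p = 0.0085 and 0.022) and for Col9a3 without knockout anterior replicate 1 (adjusted p = 0.028). It held for Itga1 without knockout posterior replicate 1 or 2 (adjusted p = 0.018 and 0.011) and for Col22a1 without knockout anterior replicate 1 or 2 (adjusted p = 0.05 and 0.027). Col13a1 met the detection filter of 3 arrays only through the knockout anterior group and Itga1 only through the control posterior group, where each was highest.

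Counting members whose arrays did not overlap between regions, 1 was higher and 13 were lower in knockout posterior epiblast, which is 2.56% and 33.3% of 39, beside 11.9% and 14.2% of all genes. The 13 were 7 collagens, 3 laminins (Lama1, Lama2, Lamc1), Itga6, Itgb4 and Itgb5. Of these, Col13a1, Col9a1, Lama2 and Itgb4 were detected on no knockout posterior array. Itgb4 was detected on only 1 knockout anterior array, and stood at 4.74, 4.51 and 4.63 in posterior against 4.93, 4.81 and 4.79 in anterior arrays. Without knockout posterior replicate 2 the counts were 3 higher and 14 lower, beside 18.3% and 18.5% of all genes, and without knockout anterior replicate 2 they were 3 and 13, beside 17.8% and 17.8% of all genes. In control embryos 7 members were higher and 5 lower in posterior epiblast, which is 17.9% and 12.8%, beside 13.7% and 13.1% of all genes. The detection filter and these counts drew in part on the same values. Col13a1 and Lama2, among the 13, met the filter of 3 arrays only through the knockout anterior group. Col24a1 and Itga1, among the 7, met it only through the control posterior group, and Col9a2, among the 5, only through the control anterior group. The knockout shift depended on the scaling: 27 of 39 members were below 0 between knockout regions as normalised, whereas after median scaling 17 lay below and 20 above the median of all genes. The regional differences had the same direction in knockout and control embryos for 26 of 39 members (66.7%), beside 68.8% of all genes.

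By family, the 21 collagens differed between knockout regions by -1.90 to 0.54 with a median of -0.14, and between control regions by -1.65 to 1.30 with a median of 0.00. The 7 laminins differed by -0.80 to 0.32 (median -0.26) and by -0.31 to 0.47 (median -0.02). The 7 integrin alpha subunits differed by -0.91 to 0.09 (median -0.15) and by -0.46 to 0.78 (median -0.15), and the 3 beta subunits by -0.36 to 0.12 and by -0.08 to -0.01. After median scaling, the knockout medians relative to all genes were 0.13 for collagens, 0.21 for integrin alpha and 0.22 for integrin beta subunits, on the other side of 0, and -0.18 for laminins.

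**Figure D2:**
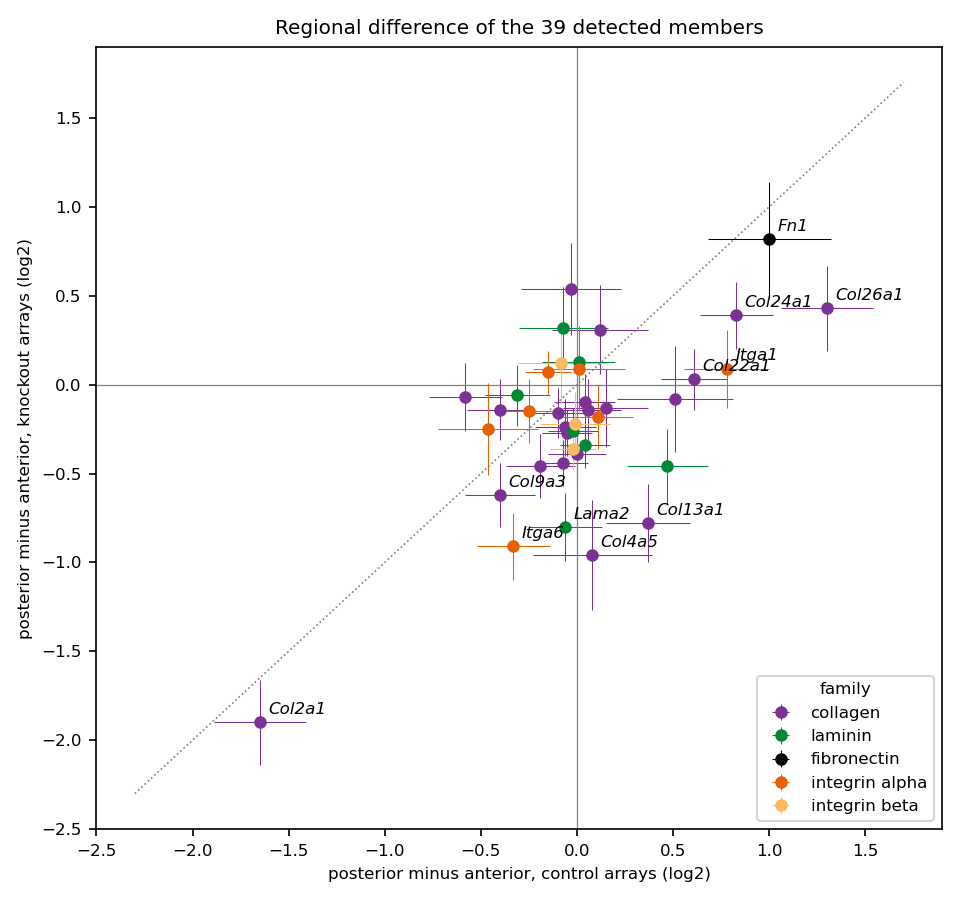
Posterior minus anterior difference (log2) of the 39 detected members in knockout arrays (vertical axis) against control arrays (horizontal axis), with standard errors as bars, families in colour and equal differences on the dotted line. Col2a1 lies at -1.90 and -1.65, Fn1 at 0.82 and 1.00 in knockout and control arrays, and most other members gather around 0 on the control axis.

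Of the basement membrane chains, Lama2 passed the test between knockout regions, as given above, and the others did not pass in either genotype. Lama1, the alpha chain of the first embryonic laminin, stood at 8.67, 9.04 and 8.74 in knockout posterior arrays against 9.08, 9.10 and 9.27 in knockout anterior arrays, which did not overlap by a narrow gap (log2 difference -0.34, SE 0.13, limma adjusted p = 0.14). In control embryos it stood at 8.69, 8.89 and 8.89 in posterior arrays against 8.83, 8.76 and 8.77 in anterior arrays (0.04, SE 0.13, adjusted p = 0.93). Lamc1, the gamma chain shared by most laminins, differed by -0.26 between knockout regions (SE 0.13, adjusted p = 0.25) and by -0.02 between control regions (SE 0.13, adjusted p = 0.97). Lama5, the alpha chain that follows Lama1 in many tissues, differed by -0.06 (SE 0.17) and -0.31 (SE 0.17, adjusted p = 0.39). Lamb1, the usual beta partner, differed in opposite directions, by -0.46 (SE 0.21, adjusted p = 0.21) and 0.47 (SE 0.21, adjusted p = 0.28), with a difference between these steps of -0.94 (SE 0.30, adjusted p = 0.67).

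Col4a1 stood at 11.20, 11.03 and 11.22 in knockout posterior arrays, 11.28, 11.54 and 11.13 in knockout anterior arrays, 10.87, 11.02 and 10.99 in control posterior arrays and 11.16, 10.92 and 11.12 in control anterior arrays. Col4a2, its partner across the shared start region, stood at 9.74, 9.77 and 9.72, then 9.87, 10.25 and 9.91, then 9.79, 9.64 and 9.49, and then 9.74, 9.64 and 9.69 in the same order of groups. The highest array of both genes was knockout anterior replicate 2. Their regional differences were -0.16 and -0.27 in knockout arrays and -0.10 and -0.05 in control arrays, with SEs of 0.13 to 0.14 and a lowest limma adjusted p of 0.24. Col4a5, a type IV chain of other trimers, had the widest regional step of the detected type IV chains, at 6.14, 4.93 and 5.89 in knockout posterior arrays against 6.10, 7.06 and 6.69 in knockout anterior arrays. The groups overlapped narrowly, and the posterior level was 1.95-fold lower (-0.96, SE 0.31, limma adjusted p = 0.082). It passed the test without knockout posterior replicate 1 (-1.19, adjusted p = 0.046) or without knockout anterior replicate 1 (-1.22, adjusted p = 0.046), and was -0.39 after median scaling (adjusted p = 0.41). In control embryos Col4a5 differed by 0.08 (SE 0.31, adjusted p = 0.94). A second Col4a5 probe, detected on all 12 arrays, differed by -0.09 between knockout regions and by 0.11 between control regions. The probes thus did not give the same knockout step. Col18a1, whose product carries endostatin in basement membranes, differed by -0.24 (SE 0.16) and -0.06 (SE 0.16). Parietal endoderm markers, 7 of 7 detected, had lower sums in the posterior groups, at 1700 to 1980 in knockout posterior against 2380 to 2570 in knockout anterior arrays, and at 1630 to 1850 in control posterior against 2320 to 2510 in control anterior arrays. Sparc was the brightest of the 7, at group means of 10.22, 10.65, 10.28 and 10.81 in knockout posterior, knockout anterior, control posterior and control anterior arrays. Nid1 and Krt19 went against the sum in knockout arrays, at 6.03 and 7.05 in posterior against 5.66 and 6.90 in anterior epiblast. Of the 7, 1 fell between regions in each genotype and none rose. The part of these and of the visceral endoderm markers in the basement membrane values was not tested.

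**Figure D3:**
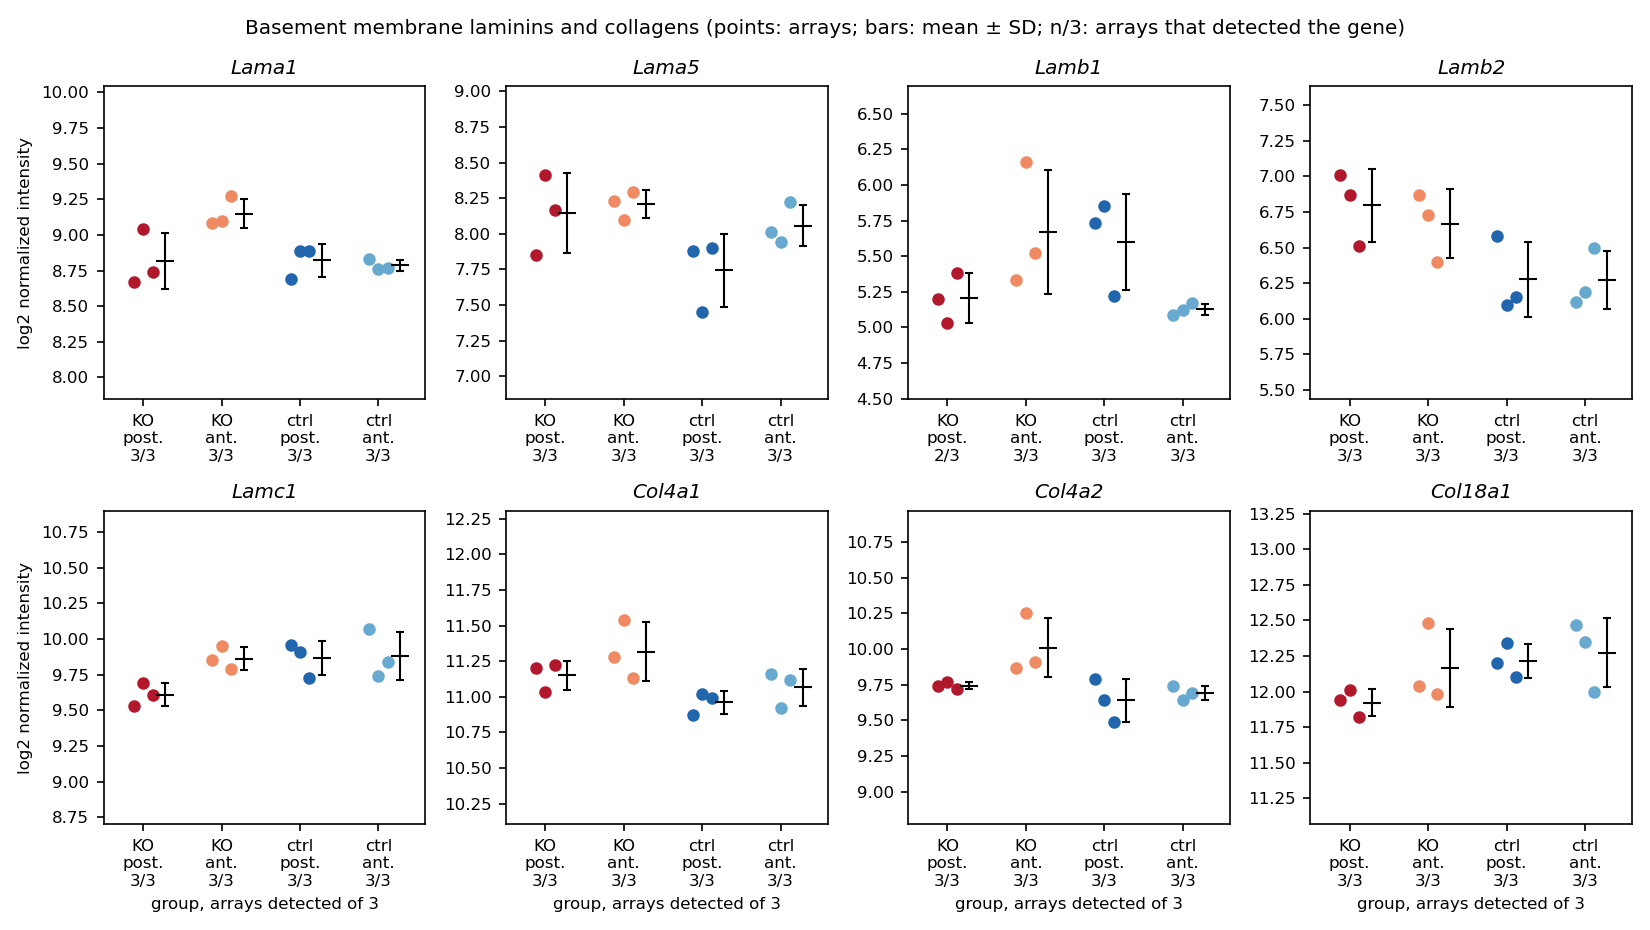
Log2 normalised intensity of 5 laminin chains, Col4a1, Col4a2 and Col18a1 in each array of the 4 groups, with bars for the mean ± SD and the number of arrays that detected the gene under each group. All vertical axes span the same range. Lama1 and Col4a2 are highest in knockout anterior arrays, and Lamc1 and Col18a1 are lowest in knockout posterior arrays by group mean.

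Of the integrins, Itga6 alone passed the test between regions. Itga5 differed by 0.07 in knockout arrays (SE 0.12, limma adjusted p = 0.78) and by -0.15 in control arrays (SE 0.12, adjusted p = 0.62). Itga3, another laminin receptor subunit, differed by -0.18 and 0.11 (SE 0.18 each), and Itgb1, the shared beta subunit, by 0.12 and -0.08 (SE 0.23 each). Itgb5, which pairs with the alpha v subunit to bind vitronectin, stood at 9.64, 9.70 and 9.76 in knockout posterior arrays against 9.95, 10.15 and 10.06 in knockout anterior arrays. These did not overlap (-0.36, SE 0.12, adjusted p = 0.081). The step passed the test with an offset of 50 (-0.34, adjusted p = 0.047), no background correction (-0.32, adjusted p = 0.022), no detection filter (-0.36, adjusted p = 0.049) and in the authors' processed values (-0.33, adjusted p = 0.027), whereas in control embryos Itgb5 differed by -0.02 (SE 0.12, adjusted p = 0.96). Itga8 was detected on 5 arrays in all, and on no control posterior array, with fitted differences of -0.25 in knockout arrays and -0.46 in control arrays (SE 0.26 each, lowest adjusted p = 0.42).

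Between genotypes no member passed the test, in either region or in their mean. Col26a1 did pass in anterior epiblast with the replicate block (1.06, limma adjusted p = 0.037), an offset of 50 (0.90, adjusted p = 0.047), trended and robust variances (1.06, adjusted p = 0.02) and array weights (0.81, adjusted p = 0.014). With array weights Lama1 and Lama2 passed there too, by 0.40 and 0.61 (adjusted p = 0.032 and 0.045), and Col26a1, Itga6 and Lamb3 passed in the mean of both regions. In the main fit, members past the threshold were 0 of 39 in anterior epiblast beside 0.503% of all genes. They were 0 beside 0% in posterior epiblast and 0 beside 0.512% in the mean of both regions. At an unadjusted p under 0.05 there were 9 members in anterior epiblast (23.1%, beside 9.07% of all genes), 7 in posterior epiblast (17.9%, beside 9.92%) and 10 in the mean (25.6%, beside 12.4%). No member passed the test for a genotype effect that differs between regions (0%, beside 0.00899%), with Col13a1 nearest at -1.15 (SE 0.32, limma adjusted p = 0.54) and Lamb1 and Lama2 after it. At an unadjusted p under 0.05 there were 8 such members (20.5%, beside 6.16%).

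**Figure D4:**
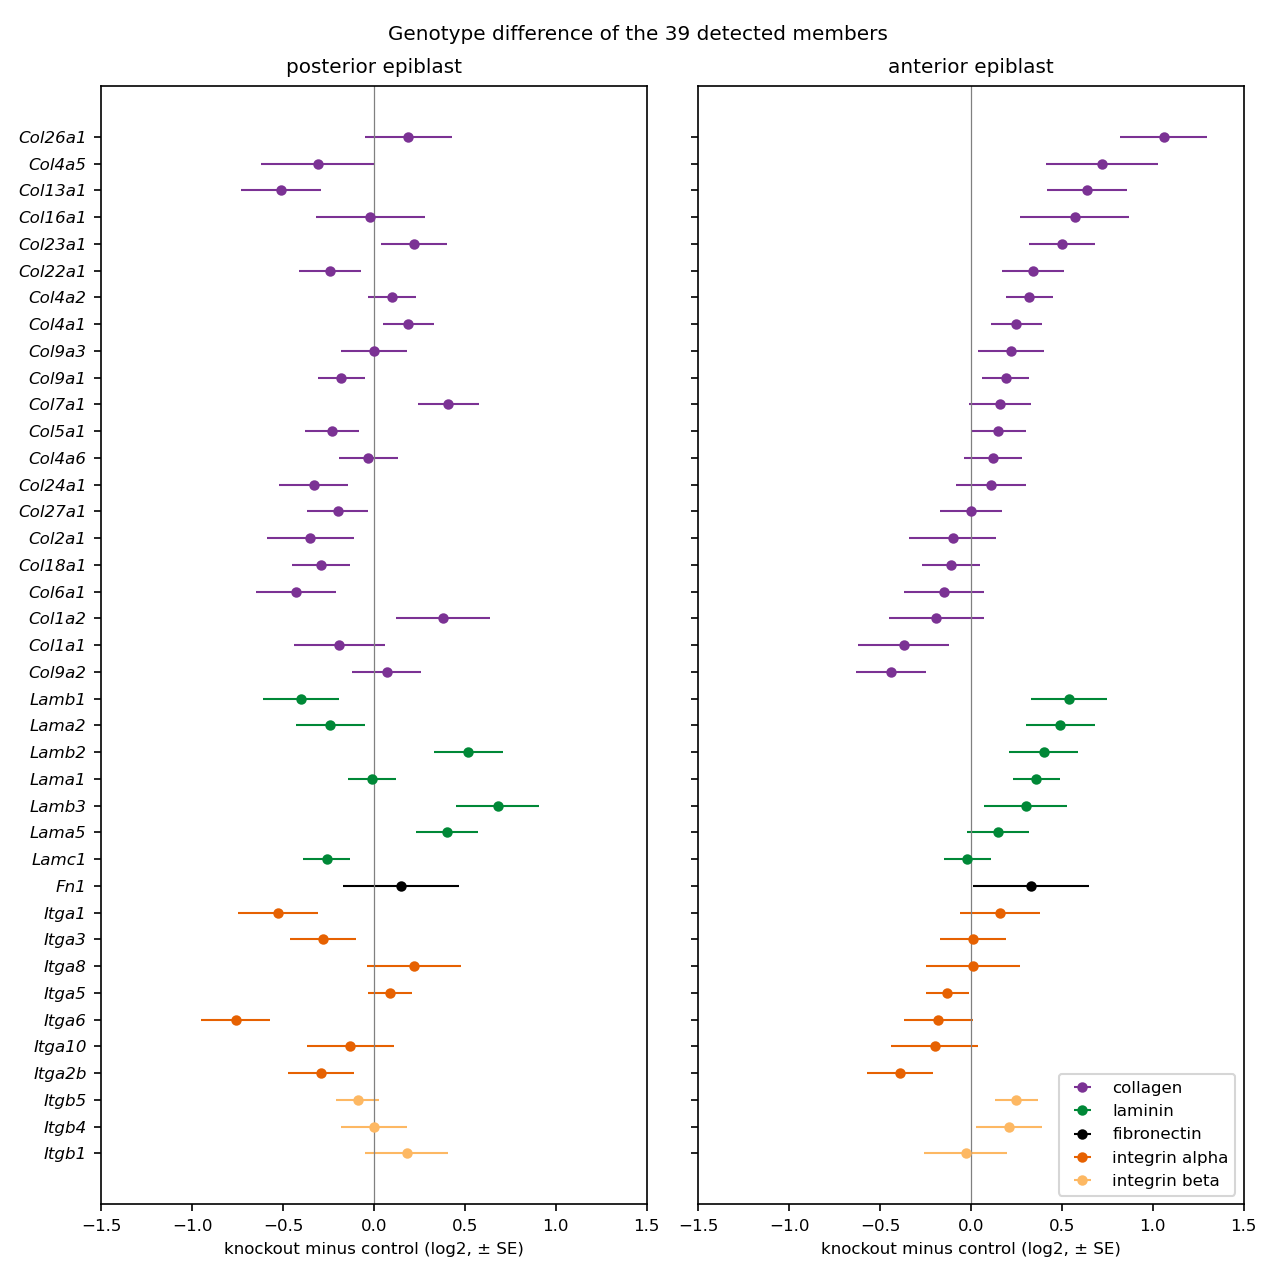
Difference between arrays labelled knockout and control arrays (log2, ± SE) of the 39 detected members in posterior and anterior epiblast, coloured by family and ordered within each family by the anterior difference. Most collagens and laminins lie right of 0 in anterior epiblast, with Col26a1 furthest at 1.06, and Itga6 lies furthest left in posterior epiblast at -0.76.

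In anterior epiblast most members lay higher in arrays labelled knockout, by small amounts. The median difference was 0.16 against 0.00 over all genes, with 27 of 39 members above 0, and after median scaling 26 of 39 lay above the median of all genes. Members whose arrays did not overlap numbered 11 higher and 1 lower, which is 28.2% and 2.56%, beside 7.24% and 6.89% of all genes, and without knockout anterior replicate 2 they numbered 14 and 2 (35.9% and 5.13%, beside 10.9% and 13.7%). The 11 were 7 collagens, Lama1, Lama2, Lamb1 and Itgb5, and Col9a2 was the lower member. Col24a1, among the 7 collagens, was detected on no anterior array of either genotype. It stood at 4.40, 4.61 and 4.40 in knockout arrays against 4.37, 4.35 and 4.37 in control arrays, so its separation lay below detection. Of the counted members, Col13a1 and Lama2 met the detection filter of 3 arrays only through the knockout anterior group. Col9a2 met it only through the control anterior group and was detected on no knockout anterior array. Each was highest in that group, so the filter and these counts drew in part on the same values. By family, laminins had a median of 0.36 with 6 of 7 above 0, collagens 0.16 with 15 of 21, and integrin alpha subunits -0.13 with 3 of 7. Mesoderm markers had higher sums in the same arrays, at 2760 to 2920 in knockout anterior against 1240 to 1300 in control anterior epiblast, with 3 of 7 rising and Hand1 on the other side, at a mean of 5.89 against 6.44. Anterior neural markers had lower sums, at 1710 to 2010 in knockout anterior against 3490 to 4260 in control anterior arrays, with 3 of 5 falling. Trophoblast markers (6 detected of 8) also had lower sums, at 659 to 832 in knockout anterior against 1090 to 1180 in control anterior arrays, with a median difference of -0.70, and Rhox9 fell (-1.13, SE 0.18, limma adjusted p = 0.015). Rhox9 and Elf5 of this list met the detection filter of 3 arrays only through the control anterior group, where each was highest. Rhox9 was detected on no knockout anterior array, so its -1.13 is a fitted value and not a measured fold. The part of these marker genes in the differences of the members was not tested.

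The largest anterior genotype difference was that of Col26a1, at 7.62, 8.66 and 7.96 in knockout arrays against 6.93, 7.09 and 7.05 in control arrays. These did not overlap, and the difference was 1.06 (SE 0.24, limma adjusted p = 0.092). Without knockout anterior replicate 2, the highest of the 3, it was 0.76 (adjusted p = 0.22). Col13a1 was at least 1.44-fold higher, at 5.25, 5.51 and 5.41 in knockout arrays, all detected, against 4.78, 4.64 and 4.81 in control arrays, none detected (fitted 0.64, SE 0.22, adjusted p = 0.39). Col23a1, a transmembrane collagen, differed by 0.50 (SE 0.18, adjusted p = 0.41), with a second probe at 0.14, and Lama1 by 0.36 (SE 0.13, adjusted p = 0.41). The second Col23a1 probe, detected on all 12 arrays, differed by -1.11 between knockout regions and by -0.52 between control regions. The main probe differed by -0.46 and -0.19. With the mean of all detected probes Col23a1 passed the test between knockout regions (-0.78, limma adjusted p = 0.02). Lama1 stood at 9.08, 9.10 and 9.27 in knockout arrays against 8.83, 8.76 and 8.77 in control arrays, which did not overlap. Col4a1 and Col4a2 differed by 0.25 (SE 0.14) and 0.32 (SE 0.13, adjusted p = 0.51).

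Fn1 differed by 0.33 in anterior epiblast (SE 0.32, limma adjusted p = 0.82), with the knockout arrays on both sides of the control ones. Without knockout anterior replicate 2, the lowest of the 12 arrays, it was 0.81 (adjusted p = 0.13). Itgb1 differed by -0.03 (SE 0.23), but a second probe, detected on all 12 arrays, differed by -0.77, so the Itgb1 probes disagreed. Itga5, Itga3 and Itga6 differed by -0.13, 0.01 and -0.18, and Col1a1 and Col1a2 by -0.37 and -0.19, with a lowest adjusted p of 0.72. Col1a1 and Col1a2 were detected on no knockout anterior array.

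In posterior epiblast the members had no common direction, with a median of -0.09 against -0.02 over all genes, 16 of 39 above 0 as normalised and, after median scaling, 28 above the median of all genes. Arrays did not overlap for 1 higher member, Col4a1, and 3 lower ones, Col18a1, Itga6 and Lamc1, which is 2.56% and 7.69%, beside 6.75% and 8.89% of all genes. Itga6 had the smallest p, at 4.95, 4.84 and 4.62 in knockout arrays against 5.65, 5.81 and 5.23 in control arrays (-0.76, SE 0.19, limma adjusted p = 0.27). After median scaling the Itga6 difference was -0.05 (adjusted p = 0.95), and the second Itga6 probe differed by -0.09. Lamb3, a beta chain of epithelial laminin, stood at 5.41, 6.08 and 5.74 in knockout arrays against 5.43, 5.21 and 4.54 in control arrays, which overlapped (0.68, SE 0.23, adjusted p = 0.38). Lamb2, the beta chain of adult basement membranes, stood at 7.01, 6.87 and 6.51 against 6.58, 6.10 and 6.15 (0.52, SE 0.19, adjusted p = 0.41). Lama5 differed by 0.40 (SE 0.17, adjusted p = 0.47) and Lamc1 by -0.26 (SE 0.13, adjusted p = 0.54), while Fn1 differed by 0.15 (SE 0.32, adjusted p = 0.90).

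In the mean of both regions, Col26a1 differed by 0.62 (SE 0.17, limma adjusted p = 0.14), Itga6 by -0.47 (SE 0.13, adjusted p = 0.15) and Lamb2 by 0.46 (SE 0.13, adjusted p = 0.15). Without knockout posterior replicate 2, Col16a1, a fibril-associated collagen, passed the test at 0.53 (adjusted p = 0.041), against 0.28 (SE 0.21, adjusted p = 0.62) with all arrays. The genotype difference had the same direction in both regions for 20 of 39 members (51.3%), beside 57.3% of all genes. No member had arrays that did not overlap between genotypes in the same direction in both regions, beside 0.881% of all genes above and 1.21% below.

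Genes that make, fold, cross-link, cut or bind this matrix were read from lists chosen by function. Of 82 detected genes on these lists, 12 passed the test between knockout regions (14.6%, beside 7.87% of all genes) and 8 between control regions (9.76%, beside 4.98%), with median differences of 0.01 in each. None passed between genotypes in limma, while 12 in anterior epiblast and 11 in posterior epiblast had an unadjusted p under 0.05 (14.6% and 13.4%, beside 9.07% and 9.92% of all genes). Among basement membrane partners, 10 of 18 were detected, and Sparc, a collagen-binding protein, was lower in control posterior than control anterior epiblast (-0.53, SE 0.13, limma adjusted p = 0.029). Among 17 detected genes of collagen folding and cross-linking, Loxl1, a lysyl oxidase that cross-links elastin, and Ppib, a prolyl isomerase of the collagen folding complex, were lower in posterior epiblast in both genotypes. Loxl1 differed by -1.01 in knockout arrays (SE 0.21, adjusted p = 0.011) and -0.93 in control arrays (SE 0.21, adjusted p = 0.019), and Ppib by -0.52 (adjusted p = 0.035) and -0.63 (adjusted p = 0.016). Neither of the 2 detected integrins named by a letter, Itgav and Itgae, passed the test in any comparison.

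Among 17 detected adaptors of integrin adhesions, Zyx, zyxin of focal adhesions, was higher in posterior epiblast by 0.54 in knockout arrays (SE 0.14, limma adjusted p = 0.037) and 0.75 in control arrays (SE 0.14, adjusted p = 0.0071), and Tln2, a talin, was lower in knockout posterior epiblast (-0.73, SE 0.19, adjusted p = 0.035). Among 22 other matrix glycoproteins and proteoglycans, 5 passed the test in knockout arrays and 2 in control arrays, beside the same 7.87% and 4.98% of all genes. Tnc, tenascin C, differed by -0.77 in knockout arrays and -1.24 in control arrays, and Gpc4, a glypican, by -0.82 and -1.42, all lower in posterior epiblast. In knockout arrays Fbn1, fibrillin of microfibrils, differed by -1.31 (SE 0.23, adjusted p = 0.0046) and Mfap4, a microfibril partner, by -0.95, while Fbln2, fibulin 2, differed by 0.70. Among 15 proteases and inhibitors, Htra1, a secreted serine protease that can cut fibronectin, was higher in posterior epiblast by 1.56 in knockout arrays and 0.82 in control arrays. Timp3, an inhibitor of metalloproteinases, was also higher, by 0.54 and 0.61, and Plat, a plasminogen activator, was lower in knockout posterior epiblast (-0.90).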

How the data were processed

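The deposited table held a probe intensity and a detection p-value for each of 46237 probes on 12 arrays, summarised by the authors in GenomeStudio per the submitters' processing notes (version not given in the sources used here). A second deposited table held the authors' processed log2 values, whose centring and normalisation were not given in the sources used here, and it served as an alternative. Intensities were background-corrected from the detection p-values and quantile-normalised with neqc in limma 3.58.1 (R 4.3.3, offset 16). Probes with a detection p-value below 0.05 on 3 or more arrays were kept, which left 21051 probes, and the brightest probe stood for each of 11124 named genes. Probe annotation was brought to current symbols through RefSeq, which updated 643 symbols among 30058 named probes. All 12 arrays were fitted as 4 group means with limma's lmFit and eBayes, with p-values adjusted over all genes by Benjamini-Hochberg, and the procedure was tested on simulated data. Arrays of a group correlated at 0.979 to 0.994, and precision is limited by the number of arrays. Marker lists are given as the summed normalised intensity of their detected genes.

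Genes were named by rule: Fn1, each member past the threshold, the 3 nearest to it in each comparison, and a set of basement membrane, fibrillar and receptor genes. The members and lists were chosen with earlier results of these data known. Of the 18 pairs of arrays with the same replicate number in different groups, 4 correlated above 0.1 in their deviations (range -0.11 to 0.22). Those of the same genotype across regions were 0.06, 0.21 and 0.22 in control arrays and -0.03, -0.11 and 0.05 in knockout arrays. Pairs of the same genotype across regions with different numbers ran between -0.26 and 0.15. This did not settle whether arrays were paired, and replicate numbers were not used as pairing in the main fit. Alternatives covered the offset, background correction, scaling, the authors' processed values, detection filters, probe choice, the variance model, array weights, blocks and leaving out each array.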

Additional observations from a re-analysis of the deposited data

How the results depend on the processing

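The 3 arrays per group and dim signal limit what could be detected: 12 of the 39 members were detected on 3 to 5 arrays, and folds of dim members depend on the background correction. With no pairing in the fit, the number of members past the threshold between genotypes in anterior epiblast was 0; it became 3 with array weights, 1 with an offset of 50, 1 with a trended, robust variance model and 1 with the replicate block (Col26a1, adjusted p = 0.037). In the mean of both regions, 0 became 3 with array weights. Between control regions, 3 became 9 with array weights and 7 with only the groups compared. The array weights gave control anterior replicate 2 a weight of 5.71, against 0.34 to 1.54 for the other arrays. Shares of all genes under these alternatives are not given here, so the counts cannot be set beside those of other genes. Between knockout regions, 3 became 1 with median scaling (Itga10, and none of the 3), 5 with no detection filter, 6 with a stricter filter and 5 with the trended, robust variance model. Leaving out each array in turn gave 0 to 0 members between genotypes in either region and 0 to 1 in their mean, 2 to 5 between control regions, 2 to 4 between knockout regions and 0 to 0 for the interaction, with the 5 reached without knockout posterior replicate 2 or without knockout anterior replicate 2. The replicate block left 3 members past the threshold between regions in each genotype, and blocking by embryo code gave 3 and 3 as well. Of single genes, Col2a1 passed between control regions under all 24 alternatives and between knockout regions under 23, Col26a1 between control regions under 24, Itga6 under 22, and Col24a1 and Lama2 under 16 each. Col9a1 reversed to 0.30 between knockout regions under median scaling, and the Fn1 interaction of -0.18 ran between -0.66 and 0.09 as arrays were left out, reversing to 0.04, 0.09 and 0.01 without knockout anterior replicate 1, knockout anterior replicate 3 and control anterior replicate 3. Over all results and alternatives, 746 were classed as unchanged. For single genes this meant the same direction and side of the threshold, and for counts of members an equal or similar count. Another 14 counts moved, while among single genes 32 results passed the threshold newly, 19 no longer passed it and 4 reversed. For these changes the cause was not tested.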
